A study of Mus musculus with 4 samples.

Results

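Mural cells wrap the endothelial tube of blood vessels. They are the pericytes of capillaries and the smooth muscle cells of arterioles and venules. In 4 libraries of single nuclei from mouse hypothalamus, 63 of 54422 kept nuclei (0.116%) met a marker rule for these cells. A nucleus was a member when it had at least 3 unique molecular identifiers (UMIs, counted transcripts) summed over Pdgfrb, Abcc9, Kcnj8, Notch3, Rgs5 and Acta2. It also had at most 2 UMIs of Snhg11, an RNA abundant in neurons, and at most 1 UMI summed over the fibroblast genes Dcn and Col1a2. Kept nuclei had at least 500 genes and at most 5% of UMIs from mitochondrially encoded genes. The levels of the 6 rule genes therefore describe how the nuclei were chosen and are not results.

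Pericytes depend on PDGF-B, which endothelial cells release and which the receptor encoded by Pdgfrb binds. Notch3, a receptor for endothelial Jagged and Delta ligands, is used by pericytes and smooth muscle alike. Arteriolar smooth muscle is told apart by its contractile proteins, such as smooth muscle actin (Acta2), smooth muscle myosin (Myh11) and transgelin (Tagln), while brain pericytes carry the ATP-sensitive potassium channel of Kcnj8 and Abcc9, vitronectin (Vtn) and the P-type ATPase Atp13a5. In the brain these cells take part in the blood-brain barrier and in the control of local blood flow.

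The libraries came from wild-type C57BL/6J mice, called conventional in the series' design text and SPF in the sample titles, and both groups wore a minipump in the peritoneal cavity for 2 weeks. The vehicle group (vehicle 1 and vehicle 2) received water with 1% DMSO. The ImP group (ImP 3 and ImP 4) received 350 µg per day of imidazole propionate (ImP), which gut bacteria make from histidine, in the same solvent. Age, sex and the number of animals behind each library were not given in the sources used here, so p-values measure the spread between libraries, which may be technical. The files held 11255 to 16348 barcodes and 48060194 to 51945297 UMIs per library. Nuclei of both ImP libraries were shallower than those of both vehicle libraries (medians of 3757 and 3179 UMIs in vehicle, 2852 and 2820 in ImP). Of 56461 distinct barcodes, 334 occurred in more than 1 library, 1 of them a member's, and no 2 members shared one. ImP 4 stood apart in the pituitary hormone transcripts Gh and Prl, which are described with the treatment comparison.

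By library there were 17 members of 10917 kept nuclei in vehicle 1, 9 of 13023 in vehicle 2, 17 of 14757 in ImP 3 and 20 of 15725 in ImP 4. The shares were 0.156% (exact Clopper-Pearson 95% interval 0.0907 to 0.249) in vehicle 1, 0.0691% (0.0316 to 0.131) in vehicle 2, 0.115% (0.0671 to 0.184) in ImP 3 and 0.127% (0.0777 to 0.196) in ImP 4. Both ImP shares lay between the 2 vehicle shares. The mean share was 0.00878 percentage points higher in ImP, with p = 1.0 in a two-sided exact permutation test over libraries, a design whose smallest p is 0.333. Vehicle 2 set the sign of this difference, which was -0.0345 points without it. These intervals cover counting error only. With UMI counts, fewer mural cells in the tissue and fewer of their nuclei recovered cannot be told apart.

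**Figure D1:**
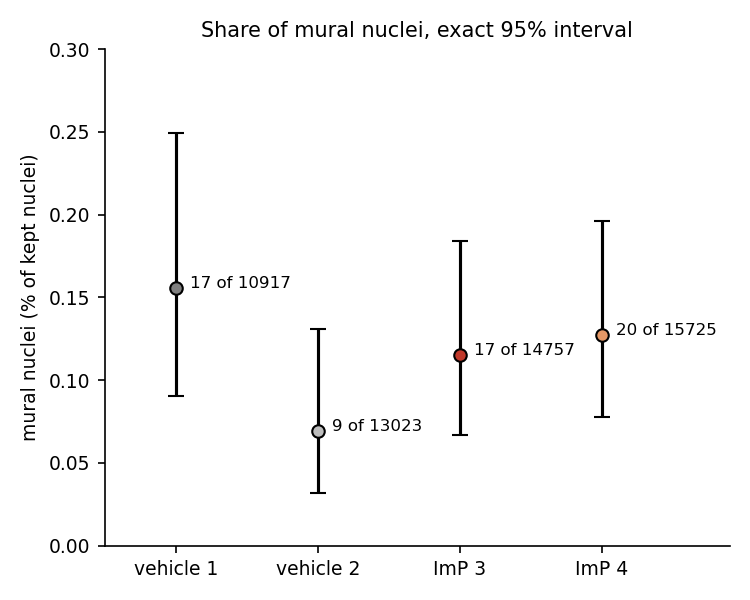
Share of kept nuclei that met the mural rule (vertical axis, percent) in each of the 4 libraries, with exact 95% binomial intervals as bars and the number of nuclei beside each point. The intervals of all 4 libraries overlap, and the highest and lowest shares, 0.156% and 0.0691%, are both of vehicle libraries.

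Members had few UMIs. Their median was 1267, 1619, 1233 and 1050.5 UMIs in vehicle 1, vehicle 2, ImP 3 and ImP 4. The pooled median of 1248 UMIs was close to that of 83 endothelial nuclei (1177), chosen by a like rule on 6 endothelial genes, and well under that of 39447 neurons (3844). Members and endothelial nuclei had at most 2 UMIs of Snhg11 and neurons at least 5, so this contrast was partly set by the choice of nuclei. The 93 nuclei with 3 or more rule UMIs that Snhg11 left out had a median of 5860 UMIs. The ImP minus vehicle difference of mean medians was -301.2 UMIs (exact permutation p = 0.333, the smallest possible). With the highest doublet scores removed the difference was 84.25 UMIs in the other direction. Because the rule asks for a fixed number of UMIs, depth bears on who is counted. The members among the highest doublet scores were 0, 4, 5 and 10 by library, 19 of 63 in all, with none in vehicle 1, and the part of this in the share and the depth was not tested beyond that removal. Of all kept nuclei, the removal took 9.0%, 10.98%, 12.38% and 13.08% by library. The 19 members had a median of 1080 UMIs, against 1407.5 in the other members. After thinning every nucleus to 800 UMIs, 7, 5, 12 and 15 nuclei met the rule, 7, 3, 9 and 11 of them members before thinning. Both ImP shares (0.0834% and 0.0976%) were above both vehicle shares (0.0651% and 0.0394%), again with the smallest possible p of 0.333 in the exact permutation test. For lack of depth 3, 1, 2 and 0 members were left out.

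The mural label was checked on genes the rule did not use. A set of 46 further genes of pericytes, smooth muscle and mural cells in general gave a median of 14 UMIs per member, against 3 in endothelial nuclei, 2 in 14 fibroblast nuclei and 3 in the deeper neurons. At least 5 such UMIs were found in 56 of 63 members (88.9%), in 22 of 83 endothelial nuclei (26.5%) and in 10765 of 39447 neurons (27.3%). By library the median was 13, 14, 17 and 11.5 UMIs, so that the members of all 4 libraries carried these genes. There were 7 members with fewer than 5, and 4 of those had 3 or more UMIs of an astrocyte list (Aqp4, Gja1, Slc1a3, Gfap, Aldh1l1). Thus most, but not all, nuclei taken by the rule had a wider mural profile.

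At the edge of the rule, the 28 members with exactly 3 rule UMIs had a median of 8.5 UMIs of the 46 genes, and 8 of them had 3 or more astrocyte UMIs. The 70 nuclei with 2 rule UMIs, just outside, had a median of 2, and 29 of them had 3 or more astrocyte UMIs. Another 93 nuclei reached 3 rule UMIs and were left out by Snhg11. Their median depth was 5860 UMIs, and 65 of them had at least 5 UMIs of the 46 genes.

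Among the rule genes, the PDGF receptor gene Pdgfrb (ENSMUSG00000024620) had 28, 16, 17 and 25 UMIs in vehicle 1, vehicle 2, ImP 3 and ImP 4, in 44 of 63 nuclei. Notch3 had 18, 9, 22 and 20 UMIs in 43 nuclei. Abcc9, the sulfonylurea receptor subunit of the vascular ATP-sensitive potassium channel, had 12, 5, 12 and 15 UMIs in 28 nuclei. Each was seen in members of every library. The comparison nuclei were bounded at 2 UMIs of the rule genes, so the contrast in these genes was set by the choice of nuclei. Even so, Notch3 was found in 9.98% of neurons. Kcnj8, the pore subunit of the same channel, was sparse, with 2, 3, 2 and 5 UMIs in 11 nuclei. Rgs5, a regulator of G protein signalling long used as a pericyte marker, had 14, 6, 13 and 23 UMIs in 26 nuclei. Of the 6 genes, 9 members had 1 detected, 24 had 2 and 30 had 3 or more.

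The pericyte genes outside the rule were led by Atp13a5. It had 60, 25, 41 and 48 UMIs in vehicle 1, vehicle 2, ImP 3 and ImP 4, or 25.3, 16.1, 17.2 and 17.1 per 10000 UMIs of the summed members. Atp13a5 was present in 71.4% of members, in 1.21% of endothelial nuclei and in 0.913% of neurons. Vtn, the adhesion protein vitronectin, had 17, 13, 11 and 10 UMIs in 26 nuclei. Slc38a11, a member of an amino acid transporter family, had 9, 12, 12 and 26 UMIs in 30 nuclei and none in endothelial nuclei. All 12 genes of the pericyte list had a UMI in the members, several of them few: Higd1b and Anpep had 3 each, Ggt1 had 5, and Enpep (the peptidase aminopeptidase A) and Ndufa4l2 had 7 each. P2ry14, a receptor for UDP-sugars, was found in 34.9% of members but in 66.0% of the deeper neurons, so that its transcripts do not mark mural nuclei in these libraries. Its level was alike in both, at 3.40 per 10000 UMIs in members and 3.32 in neurons.

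**Figure D2:**
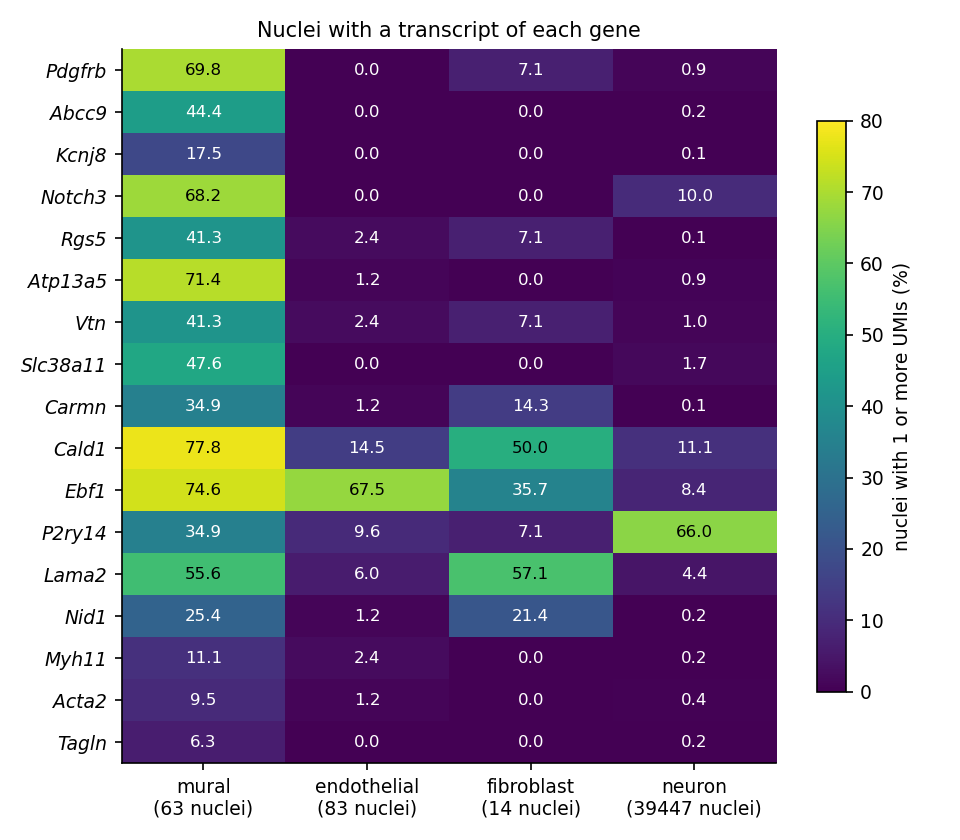
Share of nuclei with 1 or more UMIs (colour and number, percent) of 17 genes in the mural, endothelial, fibroblast and neuron nuclei of all libraries. Pdgfrb, Abcc9, Kcnj8, Notch3, Rgs5 and Acta2 chose the mural nuclei and bounded the others, so their contrast is no result. Among the genes that did not, Atp13a5 stood at 71.4% in mural and 1.21% in endothelial nuclei, while Ebf1 was frequent in both (74.6% and 67.5%) and P2ry14 was most frequent in neurons (66.0%). Neurons were the deepest of these classes, which raises their shares.

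Of the 17 genes listed as common to pericytes and smooth muscle, only Cald1 and Ebf1 were found in most members. Cald1, which encodes the actin-binding protein caldesmon, had 35, 22, 39 and 37 UMIs in 49 nuclei (77.8%), against 14.5% of endothelial nuclei and 11.1% of neurons. The long non-coding RNA Carmn, which is transcribed next to miRNAs of contractile cells, had 4, 7, 6 and 11 UMIs in 22 nuclei and was found in 1.21% of endothelial nuclei. In fibroblast nuclei Carmn stood at 2.31 per 10000 UMIs, on 6 UMIs in 2 nuclei, against 3.07 in members. The transcription factor gene Tbx2 had 5, 5, 2 and 4 UMIs in 12 nuclei. Ebf1, another transcription factor gene, was in 74.6% of members and in 67.5% of endothelial nuclei, so it was frequent in vessel nuclei of both kinds. It was also in 35.7% of fibroblast nuclei. Foxs1 was at 0 among the 91264 UMIs of the members, as were Smtn, Map3k7cl and Sncg of the smooth muscle list.

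Ranked by the ratio of summed levels in members over all other kept nuclei, with no test, the 20 leading genes held 4 rule genes (Rgs5, Abcc9, Kcnj8, Pdgfrb), which the choice of nuclei put there, 4 genes of the pericyte list (Atp13a5, Enpep, Vtn, Slc38a11) and Carmn, Tbx2, Nid1 and Myh11 of the other mural lists. The remaining 8 came from no list. Slc6a20a, a transporter of proline and related amino acids, had 14, 18, 29 and 24 UMIs in 54.0% of members and none in endothelial nuclei. It was in 21.4% of fibroblast nuclei and 1.14% of neurons. The long non-coding RNA Morrbid had 10, 8, 6 and 6 UMIs in 30.2% of members and none in endothelial or fibroblast nuclei. Fap, a cell-surface serine protease, was found in 20.6% of members and Rem1, a small GTPase of the Rad and Gem family, in 15.9%. Pde4c, a cyclic AMP phosphodiesterase, was found in 12.7%, and Ifi203, Tmem45a and the oncostatin M receptor gene Osmr in 11.1% each. Osmr alone among these 8 was more frequent in endothelial nuclei (16.9%) than in members. Tmem45a was more frequent in fibroblast nuclei (21.4%) than in members.

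Of the genes of vessel tone, 25 of 30 had a UMI in members. Parts of the nitric oxide pathway were present: the guanylyl cyclase subunit gene Gucy1b1 had 8, 2, 6 and 10 UMIs in 33.3% of members against 2.41% of endothelial nuclei, and the cyclic GMP phosphodiesterase gene Pde5a had 4, 4, 2 and 5 in 19.0% against 1.21%. Gucy1b1 was also in 21.4% of fibroblast nuclei and 18.2% of neurons, and Pde5a in 7.14% and 0.799%. Prkg1, the cyclic GMP-dependent kinase gene, had 50, 16, 44 and 58 UMIs, but was as frequent in neurons (77.7%) as in members (74.6%). The neurons were deeper (median of 3844 UMIs against 1248), so equal shares of nuclei are not equal levels. The endothelin receptor gene Ednra had 2, 2, 4 and 4 UMIs in 17.5% of members, against 1.21% of endothelial nuclei and 0.464% of neurons. Receptor genes for other constrictor and dilator signals were sparse: the histamine receptor gene Hrh1 had 5 UMIs, Agtr1a, Adra1a, Adra2a and Ptger3 had 1 each, and Adra1b, Avpr1a and P2rx1 had none. The last 3 were not detectable in the 91264 UMIs of the members.

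Of the PDGF, Notch, TGF-β and angiopoietin genes, 19 of 22 had a UMI. Beside Pdgfrb and Notch3, Cdh2 (N-cadherin, which joins pericytes to endothelial cells) had 15, 5, 10 and 13 UMIs in 42.9% of members. The deeper neurons held it more often (64.9%). The Notch effector genes were sparse, with 3 UMIs each of Hey2 and Heyl, 5 of Hes1 and none of Hey1. The TGF-β receptor genes Tgfbr1 and Tgfbr2 had 9 and 10 UMIs, at shares of members (12.7% each) near those of endothelial nuclei (10.8% and 12.05%). Tek, the angiopoietin receptor of endothelial cells, was in 4.76% of members and 31.3% of endothelial nuclei.

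Basement membrane genes were uneven. Lama2, the laminin α2 chain, had 21, 12, 14 and 30 UMIs in 55.6% of members and was found in 6.02% of endothelial nuclei, in 57.1% of the 14 fibroblast nuclei and in 4.45% of neurons. Nid1, which encodes nidogen, a linker of laminin and collagen IV, had 4, 5, 4 and 5 UMIs in 25.4% of members against 1.21% of endothelial nuclei. Among the 14 fibroblast nuclei it was in 21.4%. Lamc1, the laminin γ1 chain, had 9, 4, 4 and 12 UMIs in 36.5% of members. The collagen IV genes Col4a1 and Col4a2 had 8 UMIs each, and Hspg2, Lama5, Lamb1, Nid2 and Col18a1 had none.

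**Figure D3:**
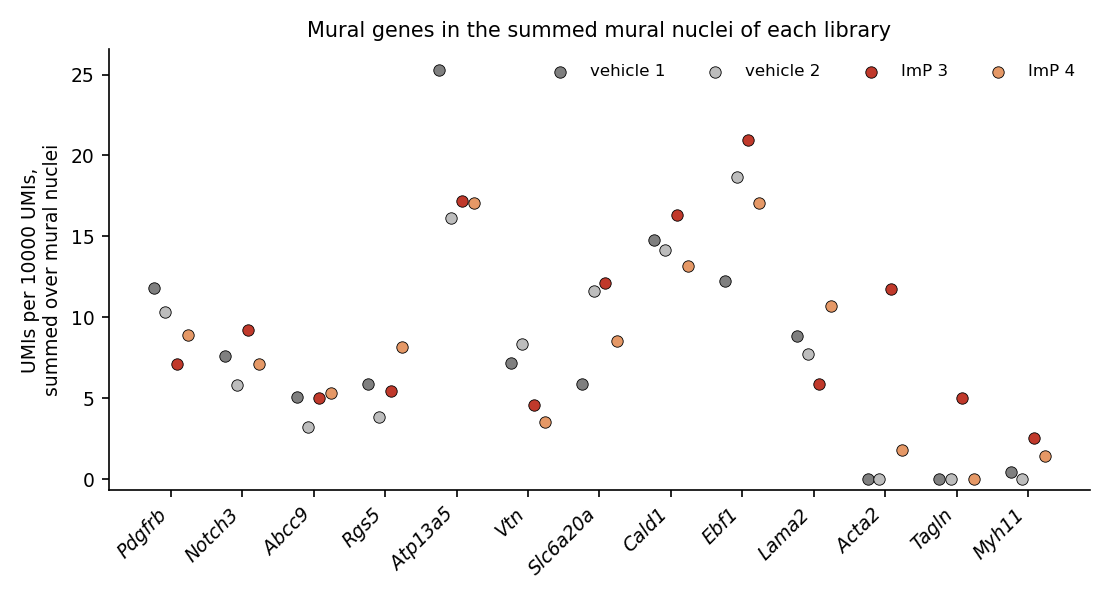
Level of 13 genes in the summed mural nuclei of each library (vertical axis, UMIs per 10000 UMIs; 1 point per library). Atp13a5 and Pdgfrb were present in all 4 libraries, while Acta2 and Tagln had no UMI in the vehicle libraries; levels of different genes are not on a per-length scale.

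Pericyte and smooth muscle transcripts were then compared within each nucleus. A nucleus was called leaning to smooth muscle when its UMIs of Acta2, Myh11, Tagln, Cnn1 and Lmod1 exceeded those of Abcc9, Kcnj8, Vtn, Atp13a5, Higd1b and P2ry14, and leaning to pericyte in the reverse case. By this sum 52 members leaned to pericyte and 6 to smooth muscle, and 5 had no lean, of which 4 had 3 or more astrocyte UMIs. Of the 12 members with any UMI of the smooth muscle genes, 9 also had UMIs of the pericyte genes, but none had 3 or more of both. In all, 11 members lay within 1 UMI of the cut, 5 of them leaning to pericyte and 1 to smooth muscle. Without P2ry14 the numbers were 48 pericyte, 6 smooth muscle and 9 without a lean.

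**Figure D4:**
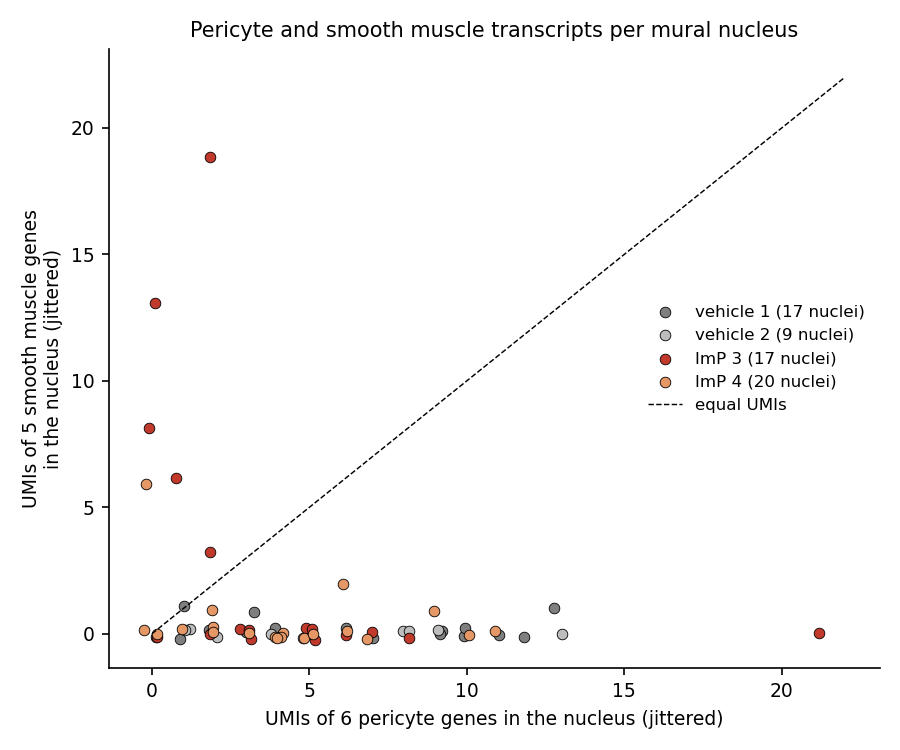
Each point is 1 of the 63 mural nuclei, coloured by library, with its UMIs of the 6 pericyte genes (horizontal) and of the 5 smooth muscle genes (vertical), moved slightly at random so that points do not cover each other. Most nuclei lie along the horizontal axis; the 6 above the dashed line of equal UMIs are 5 of ImP 3 and 1 of ImP 4.

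The smooth-muscle-leaning nuclei came from ImP libraries, 5 from ImP 3 and 1 from ImP 4. Their share of nuclei with a lean was 0 of 15 in vehicle 1, which allows a share of up to 20%, and 0 of 9 in vehicle 2, which allows up to 33.3%. It was 31.2% in ImP 3 (exact 95% interval 11.02 to 58.7) and 5.56% in ImP 4 (0.141 to 27.3). The vehicle limits use a floor of 3 counts and the ImP limits are exact intervals, so they are not alike. Both cover counting error only, and nuclei of a library are not replicates. The difference of 18.4 percentage points is given without a test, because Acta2, Abcc9 and Kcnj8 stand both in the rule and in the lean. It was 5.56 points without ImP 3, and with Acta2 taken out of the rule it was 4.17 points, on 1 smooth-muscle-leaning nucleus. Markers of other classes moved with it: 4 of the 6 nuclei had 5 or more UMIs of the endothelial list, against 2 of 52 pericyte-leaning nuclei, and 5 of the 6 had some other-class list at that level. With such nuclei left out, 1 smooth-muscle-leaning nucleus remained and the difference was 5.56 points. The part of these markers in the result was not tested. Of the 6, 2 were also among the highest doublet scores.

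Acta2 was the gene that brought most of them in. Its UMIs were 0, 0, 28 and 5 in vehicle 1, vehicle 2, ImP 3 and ImP 4. Of the 6 nuclei, 4 had no other rule gene, and 1 would have met the rule without Acta2. By nucleus, the 5 of ImP 3 had 3, 4, 7, 3 and 11 Acta2 UMIs and 0, 2, 3, 4 and 3 of Tagln, and the nucleus of ImP 4 had 5 and 0. One nucleus of ImP 3 with 3 Acta2, 4 Tagln and 1 Myh11 UMIs also had 4 UMIs of Notch3 and none of the endothelial list, and was the 1 nucleus of the 6 with under 5 UMIs of every other class's list. It still had 2 UMIs of the oligodendrocyte list. Tagln had 0, 0, 12 and 0 UMIs in the members of the 4 libraries, and Mgp, the matrix Gla protein found in vascular smooth muscle, 0, 0, 14 and 3. Since Acta2 let these nuclei into the members, no fold between the groups is given. These counts rest mainly on ImP 3 and on 6 nuclei or fewer per gene.

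Other contractile genes were found in both kinds of nuclei. Myh11 had 1, 0, 6 and 4 UMIs in 7 nuclei, 3 leaning to smooth muscle and 4 to pericyte. Pln, which encodes phospholamban, an inhibitor of the calcium pump of the sarcoplasmic reticulum, had 1, 1, 7 and 1 UMIs. Of these 10 UMIs 7 were in smooth-muscle-leaning nuclei and 3 in pericyte-leaning ones. Mylk, the myosin light chain kinase gene, had 4, 2, 8 and 5 UMIs. It was found in 12 pericyte-leaning nuclei at 2.01 per 10000 UMIs and in 3 smooth-muscle-leaning nuclei at 5.69. Myl9, a myosin light chain gene, had 0, 1, 7 and 1 UMIs.

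The genes set apart by lean are given as a description, since the lean itself was cut from these counts. In the 8785 UMIs of the smooth-muscle-leaning nuclei, Abcc9, Kcnj8, Rgs5, Atp13a5, Slc38a11, Nid1 and Gucy1b1 were all at 0. In the 69600 UMIs of the pericyte-leaning nuclei they had 44, 12, 56, 173, 59, 18 and 25 UMIs. Abcc9, Kcnj8 and Atp13a5 were among the genes that cut the lean, and Abcc9, Kcnj8 and Rgs5 were rule genes. Their 0 was thus partly set by the choice of nuclei and is no result. With so few UMIs on the smooth muscle side, the 0 of Kcnj8, Nid1 and Gucy1b1 also shows little. The cut of the lean bears on Vtn, P2ry14 and Higd1b below as well. Other pericyte list genes were present there. Vtn (3.415 per 10000 against 6.897) and P2ry14 (1.138 against 4.31) were lower than in pericyte-leaning nuclei. Ndufa4l2, Higd1b, Slc20a2 and Slc19a1, on 1 or 2 UMIs each, were higher. Outside the lists, Plxdc2 (126 UMIs in 40 nuclei), the cyclic AMP phosphodiesterase gene Pde4d (115 in 43), Rapgef5 (75 in 36), the GTPase-activating protein gene Arhgap42 (61 in 31) and the scavenger receptor gene Colec12 (59 in 30) were at 0 in the smooth-muscle-leaning nuclei. Pde8b, another cyclic AMP phosphodiesterase gene, had 177 UMIs in 46 pericyte-leaning nuclei and 1 in the others, and the metabotropic glutamate receptor gene Grm7 had 169 in 42 and 1. Wdr17 and Gpc5, also of this ranking, were found in few nuclei, 7 and 8. Of all Wdr17 UMIs in members 83 of 104, and of Gpc5 153 of 215, lay in the members with 3 or more astrocyte UMIs. In the other direction, Slit3 (an axon guidance ligand) and Myom1 (myomesin) had 5 UMIs in 3 smooth-muscle-leaning nuclei each. Tpm2 (β-tropomyosin) had 5 in 2, Bmp6 and Zfp706 4 in 3 each and Mustn1 4 in 2. Ccdc28a and Col11a1 had 3 in 2 each, and D7Ertd443e and Dixdc1 3 in 1 each. All were at 0 in pericyte-leaning nuclei, which a ranking by ratio favours. Of the 6 smooth-muscle-leaning nuclei, 5 had markers of other classes, whose part in these counts was not tested.

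Contractile genes of smooth muscle are known targets of serum response factor, which binds the CArG box, and the start regions of Acta2 and Myl9 show what this motif looks like. Acta2 was in all 6 smooth-muscle-leaning nuclei, and Myl9 in 2 of them and in 3 pericyte-leaning ones. Both are from RefSeq on build GRCm38.p6, while the counts were made on GRCm39. Acta2 is shown from 150 to 21 bases before its start (chr19:34255394-34255523, minus strand) and Myl9 from 200 to 81 bases before (chr2:156775264-156775383, plus strand). Capitals mark a CArG box in which at most 1 of the 6 middle bases is not A or T.
Acta2: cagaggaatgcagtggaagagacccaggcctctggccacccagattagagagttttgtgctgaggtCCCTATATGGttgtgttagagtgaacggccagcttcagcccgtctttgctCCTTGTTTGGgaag
Myl9: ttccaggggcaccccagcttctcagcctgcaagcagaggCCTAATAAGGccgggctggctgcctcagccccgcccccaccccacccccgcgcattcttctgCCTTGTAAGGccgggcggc
The strict box was in 535 of 32851 promoters of this table (1.63%) and the box with 1 other base in 9.98%, counted over windows from 250 bases before to 50 after the start. The motif reads the same on both strands. Of the 17 smooth muscle list genes, which do not include Acta2, 12 had an entry, and 1 of these (Myl9) held the strict box and 2 (Myl9 and Kcnab1) the wider one. Acta2 held 2 of the wider kind, at bases -84 and -34, and Myl9 held 1 strict box at -161 and 1 wider box at -99. Among the 12 pericyte genes, 9 had an entry, none with the strict box and 1 (Ggt1) with the wider one. These matches are letters in the reference and say nothing of binding in these nuclei.

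ImP was compared with vehicle on UMIs summed over the members of each library. Of 287 genes with enough counts, 0 passed an adjusted p of 0.05 in edgeR's quasi-likelihood test with Benjamini-Hochberg adjustment, or 0% of genes called in either direction. Unadjusted p-values under 0.05 numbered 43 (19 higher and 24 lower in ImP), where 14.4 are expected by chance, and DESeq2 gave 0 calls with 14 such p-values. Both ImP libraries were above both vehicle libraries for 23.3% of the genes tested and below both for 21.3%. In simulated data of the same depth the test found 35.6% of genes changed 2-fold and 86.2% of those changed 4-fold, so modest changes would mostly be missed. Only 102 of the 292 genes tested there were unchanged, and all genes had the same dispersion. Where few genes change, the adjustment is stricter and these shares would be lower.

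No mural gene passed, and those tested had ratios with wide errors. The rule genes are left out here, because the rule set a minimum on their sum. Among pericyte genes the log2 ratio of ImP over vehicle was -0.82 ± 0.43 (SE) for Vtn, whose adjusted p in edgeR's test was 0.412, -0.19 ± 0.39 for Atp13a5 and 0.51 ± 0.53 for Slc38a11. Vtn stood at 7.17 and 8.37 per 10000 UMIs in vehicle and at 4.60 and 3.56 in ImP, without overlap. Cald1 (0.12 ± 0.36) and Ebf1 (0.41 ± 0.38) were the 2 shared mural genes tested, and no smooth muscle gene had enough counts. In each of these lists 0 genes were called, as over all genes tested, whose median log2 ratio was 0.08. Of the vasoactive genes 5 were tested, among them Itpr1, Prkg1 and Cacna1c, and of the basement membrane genes 4 (Vtn, Sparcl1, Sparc, Lama2), with 0 called.

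**Figure D5:**
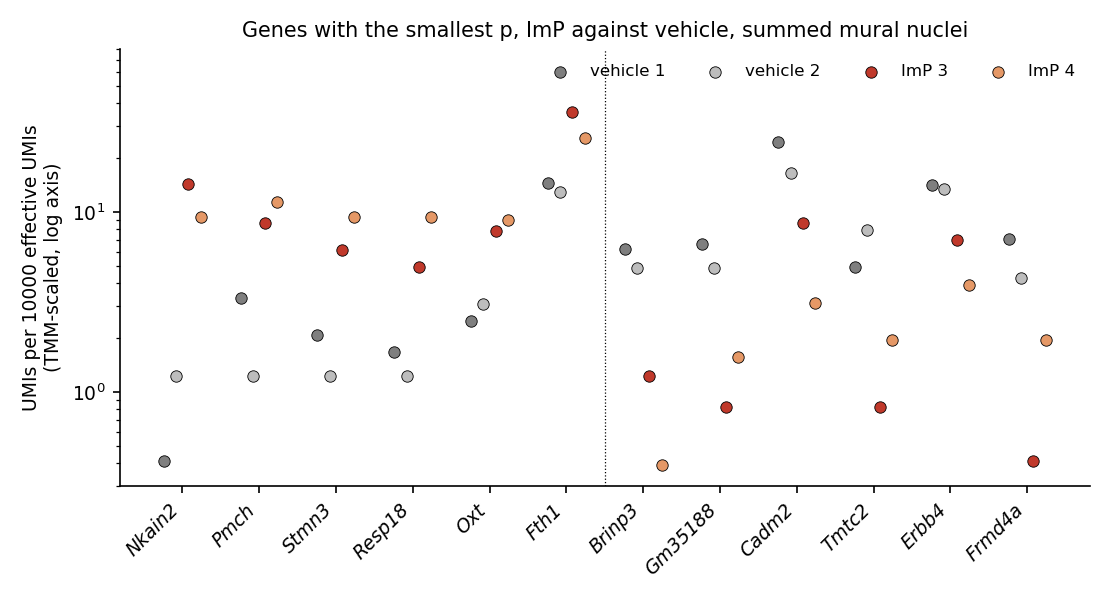
Level of the 12 genes with the smallest p in each direction in the summed mural nuclei of each library (vertical axis, UMIs per 10000 effective UMIs after TMM scaling, log axis; 1 point per library). The 6 genes left of the dotted line were higher in both ImP libraries and the 6 right of it lower, and none passed the adjusted threshold.

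The gene with the smallest p was Nkain2, which encodes a membrane protein that interacts with the sodium pump. It had 1, 2, 35 and 24 UMIs in vehicle 1, vehicle 2, ImP 3 and ImP 4, a log2 ratio of 3.89 ± 0.63 and an adjusted p of 0.0771 in edgeR's test. Few nuclei carried these UMIs. Only 7 members had any, 3 of them held 56 of the 62 UMIs, and 57 were in the 5 members with 5 or more UMIs of an oligodendrocyte list (which includes Mbp, Mog, Mag and Mobp). That list stood at 6.32, 12.2, 20.1 and 13.5 per 10000 UMIs in the members of the 4 libraries, and its part in the result was not tested. In all other kept nuclei Nkain2 was level, at 24.4, 22.0, 23.8 and 20.8 per 10000.

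Of the other higher genes, 4 belong to neurons or to secretory cells. Pmch, the precursor of melanin-concentrating hormone of lateral hypothalamic neurons, had 8, 2, 21 and 29 UMIs (log2 ratio 2.01 ± 0.52), Oxt, the oxytocin precursor, 6, 5, 19 and 23 (1.60 ± 0.46), Stmn3, a stathmin of neurons, 5, 2, 15 and 24 (2.15 ± 0.58) and Resp18, a protein of neuroendocrine secretory granules, 4, 2, 12 and 24 (2.24 ± 0.63). Each had an adjusted p of 0.242 in edgeR's test. For all 4, both ImP libraries were also above both vehicle libraries in the other kept nuclei. The share of all genes with this order in the other kept nuclei was not counted, so these 4 cannot be called unusual there. Pmch stood there at 2.01 and 1.88 per 10000 in vehicle and 3.10 and 3.59 in ImP, and Oxt at 1.29 and 1.98 against 2.79 and 3.52. Fth1, the ferritin heavy chain gene, had 35, 21, 87 and 66 UMIs in 55 members (1.16 ± 0.37, adjusted p = 0.242) and in other kept nuclei stood at 4.61, 6.20, 9.05 and 7.80 per 10000. The part of this wider difference in the members' values was not tested.

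The 6 lower genes, each with an adjusted p of 0.242 in edgeR's test, were Brinp3, Gm35188, Cadm2, Tmtc2, Erbb4 and Frmd4a. Cadm2, a synaptic cell adhesion gene, had 59, 27, 21 and 8 UMIs (log2 ratio -1.81 ± 0.52), and 71 of these 115 were in the 7 members with 5 or more astrocyte UMIs. Erbb4, a neuregulin receptor gene, had 34, 22, 17 and 10 UMIs (-1.34 ± 0.42), 52 of 83 in those members. Brinp3 had 15, 8, 3 and 1 UMIs, 20 of 27 in them. In the other kept nuclei Cadm2 stood at 19.9, 18.5, 19.96 and 16.3 per 10000 and Erbb4 at 13.2, 13.7, 13.9 and 13.1. The astrocyte list as a whole was at 5.90, 7.08, 7.12 and 6.76 per 10000 in the members of the 4 libraries, and the groups overlapped. With members of other-class markers left out, the log2 ratio of Cadm2 was -0.50.

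Across all members, markers of other cell types were present at low counts. At least 5 UMIs were found for the astrocyte list in 7 members, for the endothelial list in 6 and for the oligodendrocyte list in 5. The neuron list had as many in 1 member and the microglial and fibroblast lists in none. Cx3cr1, Lum and Slc47a1 were at 0. Snhg11 is in the neuron list, and Dcn and Col1a2 are in the fibroblast list. The rule capped these genes, so the low counts of both lists were partly set by the choice of nuclei. At least 1 UMI of the neuron list was in 53 members, and of the fibroblast list in 31. The endothelial list stood at 1.26, 23.8, 10.9 and 18.5 per 10000 UMIs, lowest in vehicle 1, and 2 pericyte-leaning nuclei held 37 and 43 of its UMIs. Growth hormone (Gh) had 1, 0, 0 and 111 UMIs and prolactin (Prl) 1, 0, 1 and 37, so that all 20 members of ImP 4 had a UMI of either. The same held for the other nuclei, where Gh stood at 20.7 per 10000 in ImP 4 and at 0.0683 to 0.277 in the other libraries. One ImP 4 member had 45 Gh UMIs. The nuclei left out for other-class markers were the 18 members with 5 or more UMIs of the astrocyte, oligodendrocyte, microglial or endothelial list, or 20 or more of Gh and Prl, and 45 remained: 15, 5, 10 and 15 by library.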

How the data were processed

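Nuclei were profiled by 10x Genomics 3′ sequencing of about 10000 loaded nuclei per library, with a target of at least 40000 read pairs per nucleus. UMI counts per gene and barcode were deposited, made by the authors with Cell Ranger 8.0.1 on GRCm39, per the submitters' processing notes and the file headers. Seurat 5.0.0 is also named there. The annotation and the handling of intronic reads were not given in the sources used here.

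Members were taken by the stated rule with doublets kept. Doublet scores followed the Scrublet procedure, and the top 0.8% per 1000 barcodes were removed as an alternative. Endothelial and fibroblast nuclei needed 3 UMIs of their markers and neurons 5 UMIs of Snhg11, all with at most 2 UMIs of the mural rule genes. Members and lists were chosen with earlier results of these data known. UMIs were summed per library and tested with edgeR 4.0.16 (R 4.3.3; TMM, minimum count 10, adjusted p 0.05), checked on simulated data with 200 of the genes changed, where 6 of 102 unchanged genes were called. DESeq2 1.42.0 was an alternative. Named for ImP were 6 genes a direction by smallest p, since none passed. Named for mural nuclei were the 20 highest ratios among genes in 10% or more of members, for lean the 10 highest each way, and any gene of the fixed lists. Libraries were compared by exact permutation, except for the share leaning to smooth muscle, whose planned test is not given because its genes overlap the rule. The pericyte list without P2ry14, 4 other choices of members for the smooth muscle share, thinning to 800 UMIs and leaving out nuclei with markers of other classes (5 UMIs, or 20 of Gh and Prl) were chosen after seeing the data. Limits on a share of 0 use a floor of 3 counts. Python 3.11.15 and numpy 2.4.6 were used. Some genes of the lists are counted but not reported here.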

Additional observations from a re-analysis of the deposited data

How the results depend on the processing

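The difference in the share of mural nuclei between ImP and vehicle, 0.00878 percentage points, had the other sign in 6 settings: -0.00653 at a minimum of 2 rule UMIs, -0.0241 with the top doublet scores removed, -0.00795 without Acta2 in the rule, -0.000727 without nuclei of endothelial markers, -0.00632 without nuclei of other-class markers and -0.0345 without vehicle 2. Leaving out 1 library gave -0.0345 to 0.0521 points. The difference in median UMIs was 84.25 with the top doublet scores removed. The cause was not tested in either case. The smooth muscle share, given without a test, differed by 4.17 points without Acta2 in the rule, 5.56 without ImP 3 or without other-class nuclei, 10.6 without endothelial-marker nuclei, 31.25 without ImP 4, 40 after thinning to 1500 UMIs and 15.95 to 21.25 in the other settings, thinning to 800 included. After thinning to 1500 UMIs 1, 2, 6 and 6 nuclei met the rule, of which 1, 2, 4 and 3 were members before.

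In place of 0 genes, edgeR called 1 with upper-quartile scaling and without endothelial-marker nuclei (Nkain2 in both), 2 at a minimum count of 3 (Nkain2 and Acta2), 4 with no filter (with Gh and Prl added) and 1 without other-class nuclei (Malat1). Acta2 is a rule gene, and 4 of the 6 nuclei that carried it had no other rule gene. Wherever Acta2 was called, the choice of members bore on the call, which is no result. Leaving out 1 library gave 2 to 15 calls: 6 without vehicle 1, 15 without vehicle 2, 7 without ImP 3 and 2 without ImP 4, with the lone library of a group assumed to vary like the pair of the other. Calls stayed at 0 under DESeq2, library size alone, the doublet removal, a minimum of 5 rule UMIs and a block on the number in the library names. The adjusted p of Nkain2 ranged from 1.57e-05 to 0.385. Of 144 values for the 12 named genes, none changed sign and 10 passed the threshold: Nkain2 in 7, Cadm2 in 2 and Pmch in 1. A named gene under the count filter of a setting has no value there. Nkain2 had none with the doublet removal, a minimum of 5 rule UMIs or other-class nuclei left out. Without other-class nuclei, Brinp3, Gm35188, Tmtc2, Erbb4 and Frmd4a had none either. At a minimum of 5 rule UMIs 63 genes were tested, and Fth1 alone of the named genes was among them. The groups share no replicate numbers, and the block on the library names is the only pairing tried. Depth limits all of this: a library held 9 to 20 members with 15525 to 28127 UMIs, so 1 UMI was 0.356 to 0.644 per 10000.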
